A study of Mus musculus with 12 samples.

Results

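Nitric oxide and arginine metabolism were followed through 7 genes in primary mouse chondrocytes: Nos2, Gch1, Ass1, Asl, Slc7a1, Slc7a2 and Odc1. They belong to a set of 9, of the 57010 gene IDs counted, chosen by symbol for their roles in making nitric oxide (NO) and in taking up, remaking and using arginine and matched to mouse Ensembl identifiers. All 7 passed the expression filter. Poly(A) RNA was sequenced in 12 libraries of cells with a wild-type genotype, 4 per group, numbered 1 to 4 in accession order only to name them. The groups were control cells, cells transfected with a plasmid labelled WT (here SIRT5_WT, read as wild-type SIRT5) and cells transfected with the SIRT5F101L mutant plasmid (here SIRT5_F101L). SIRT5 is a mitochondrial enzyme that removes acyl groups such as malonyl from lysines. The labels do not say whether control cells received an empty plasmid or any transfection, and they give no time point, dose, mouse age or sex. In both comparisons with control the plasmid's protein and transfection itself cannot be told apart, and the comparisons share the same 4 control libraries. The labels do not state that the libraries of a group came from separate cultures or mice, so the p-values measure only the spread between these libraries.

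Arginine is the substrate of nitric oxide synthases. Inducible nitric oxide synthase (iNOS, from Nos2) turns arginine into NO and citrulline and needs tetrahydrobiopterin, whose synthesis starts with GTP cyclohydrolase I (Gch1). Argininosuccinate synthase (Ass1) and lyase (Asl) turn citrulline back into arginine, while ornithine decarboxylase (Odc1) makes the polyamine putrescine from ornithine. Cationic amino acid transporters CAT1 (Slc7a1) and CAT2 (Slc7a2) carry arginine into the cell. Chondrocytes are known to produce iNOS and NO when exposed to inflammatory cytokines such as interleukin-1.

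The proximal promoters of Gch1 and Odc1 are shown because, besides Nos2, these genes had the clearest rises in both plasmid groups. RefSeq's promoter table (GRCm38.p6) had an entry for 4 of the 7 genes, Gch1, Odc1, Ass1 and Slc7a1. In each sequence, read 5′ to 3′ on the gene's strand, capitals mark matches to the general NF-kB form, GGG followed by 5 bases of any kind and CC, on either strand.
Gch1, chr14:47189414-47189663, minus strand, the 250 bases before the RefSeq start: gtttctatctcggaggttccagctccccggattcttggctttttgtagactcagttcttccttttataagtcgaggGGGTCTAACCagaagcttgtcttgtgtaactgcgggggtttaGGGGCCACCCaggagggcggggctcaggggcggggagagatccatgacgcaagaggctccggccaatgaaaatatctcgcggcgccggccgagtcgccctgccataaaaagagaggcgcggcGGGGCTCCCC
Odc1, chr12:17544623-17544793, plus strand, bases -250 to -80 before the RefSeq start: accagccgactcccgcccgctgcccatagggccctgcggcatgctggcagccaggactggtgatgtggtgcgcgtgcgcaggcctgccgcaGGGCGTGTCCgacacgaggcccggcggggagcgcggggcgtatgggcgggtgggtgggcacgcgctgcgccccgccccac
Gch1 had 3 matches, starting 174, 132 and 10 bases before its start, and the last of these ends at the base before the start. Odc1 had 1, starting 159 bases before. This form is loose, since 45.8% of 32851 promoter windows of 250 bases held at least 1 match. Of the genes that fell, Ass1 had 6 matches, and Slc7a1 had 5 before 1 of its RefSeq starts and 0 before the other. Neither printed sequence held the forms TTGCNNAA (C/EBP, in 9.56% of windows), TGANTCA (AP-1, 6.75%), GAAA with any 2 bases and GAAA (ISRE, 2.98%), TTCNNNGAA (GAS, 7.02%), CACGTG (E-box, 6.02%) or TGATGNAA (CARE, 3.45%). Of these forms, Ass1 held 1 E-box match, and Slc7a1 held 1 AP-1 match before the start with 5 NF-kB matches and 1 GAS match before the other. A match describes letters only, since no binding was measured.

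Library totals ran from 15095357 to 24242139 counts, and 14253 genes passed the expression filter. Levels are library-size-scaled counts (CPM) after TMM scaling, which equalises library composition. Tests are edgeR's quasi-likelihood test on all 12 libraries with Benjamini-Hochberg adjustment over all tested genes, 2-sided, and a gene was called at an adjusted p under 0.05. In a principal component analysis, control and plasmid libraries parted along the first axis, with 72.7% of the variance. SIRT5_F101L replicate 1 stood apart from the rest of its group: on the second principal component it lay at -20.3, beside SIRT5_WT replicates 2 to 4 (-20.1 to -12.5), and the other SIRT5_F101L libraries lay at 17.0 to 23.5. SIRT5_WT replicate 1, at 1.07, also lay away from the rest of its group, toward those SIRT5_F101L libraries. Results between the plasmid groups are therefore also given without SIRT5_F101L replicate 1, and for the 7 genes the calls without SIRT5_WT replicate 1. Both libraries were picked from these same data by their place on the second component. Leaving out SIRT5_F101L replicate 1 therefore favours calls between the plasmid groups. Sirt5 itself had only 1 to 19 counts in any library (0.479 to 0.873 CPM in control, 0.0514 to 0.577 in SIRT5_WT, 0.481 to 1.23 in SIRT5_F101L), so its mouse gene counts did not show either plasmid. Whether the plasmid sequence would be counted under that gene is not given in the sources used here. All 2414 IDs on chromosome X, 1547 on Y and 37 on the mitochondrial chromosome were listed at 0.

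Against control, all 7 genes changed in SIRT5_WT, 4 upward (Nos2, Gch1, Asl and Odc1) and 3 downward (Ass1, Slc7a1 and Slc7a2). In SIRT5_F101L 5 changed, 3 upward (Nos2, Gch1 and Odc1) and 2 downward (Ass1 and Slc7a1). The groups did not overlap for 4 of the 7 in SIRT5_WT and 4 in SIRT5_F101L, as for 53.5% and 51.3% of all tested genes. The same rule called 56.8% of all tested genes in SIRT5_WT and 60.7% in SIRT5_F101L (28.7% and 30% upward, 28.1% and 30.7% downward), so a called gene was the usual case in this experiment, and the size of a change says more than the call. A called change of at least 2-fold was less common, at 16.7% and 17.5% of genes, and among the 7 genes only Nos2 and Odc1 reached it, in both plasmid groups. Without SIRT5_F101L replicate 1 the same 5 genes were called in SIRT5_F101L against control, while Asl lay at 0.08 and Slc7a2 at -0.05, neither called (edgeR adjusted p = 0.425 and 0.498). The median log2 fold change of the 7 genes, which is that of Asl, was 0.22 and 0.14, beside -0.01 and -0.02 for all tested genes. Regardless of direction, the median size of the change was 0.34 and 0.35, beside 0.37 and 0.40 for all tested genes.

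**Figure D1:**
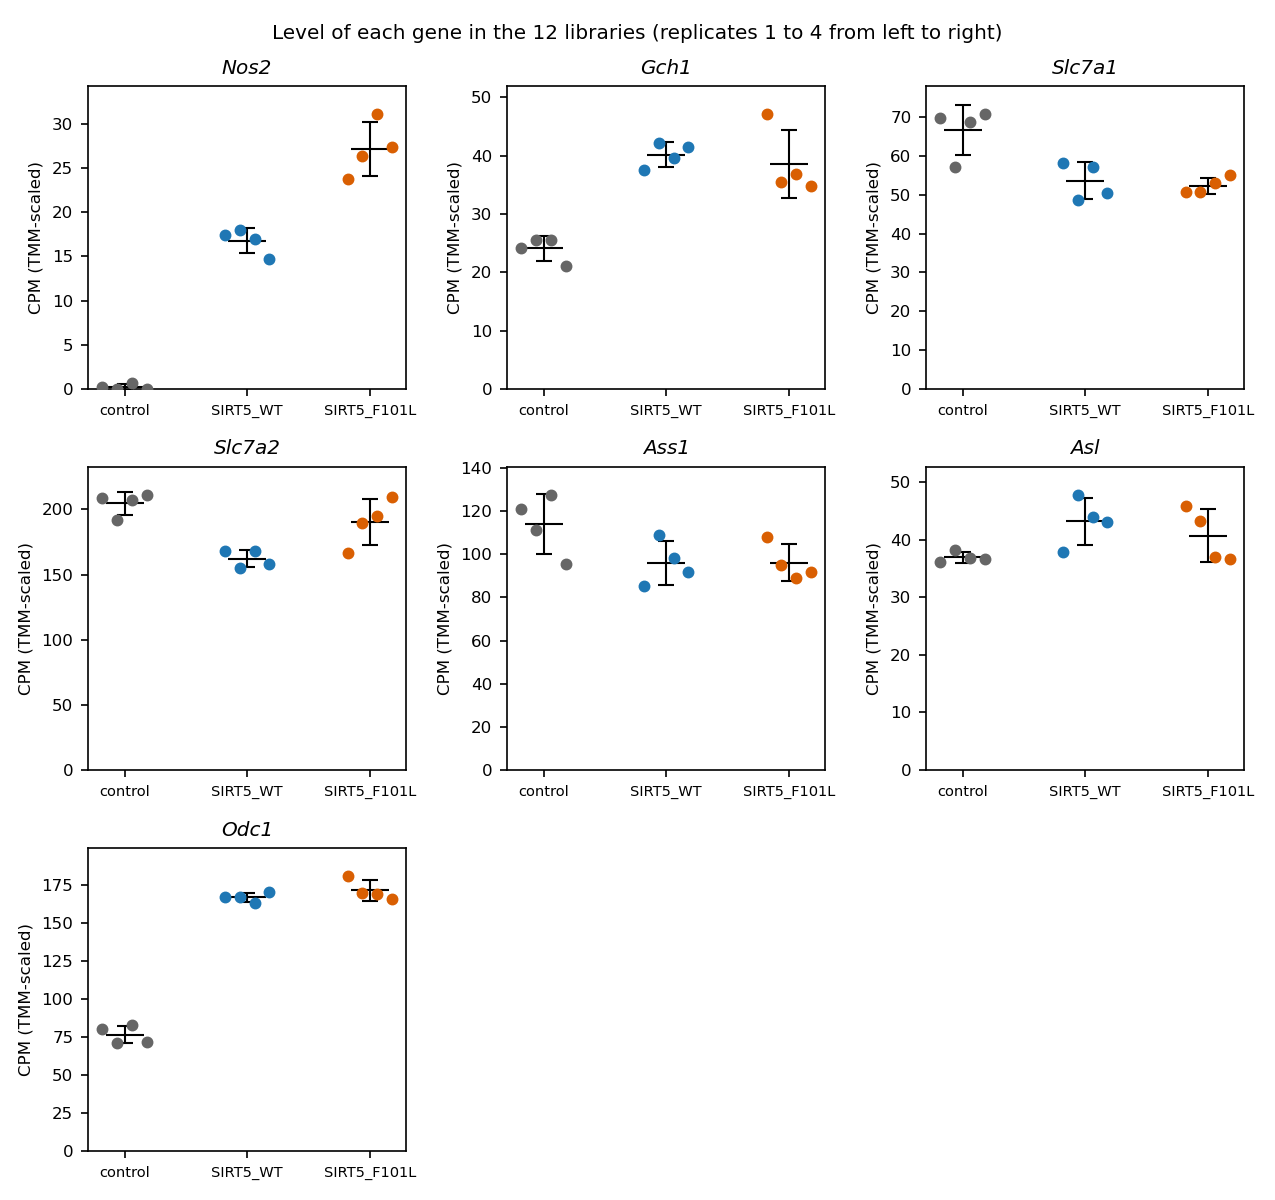
Level of each of the 7 genes in each library, in TMM-scaled CPM on a linear axis starting at 0, with one point per library (replicates 1 to 4 from left to right) and a bar at the mean with ± SD for the 4 libraries of a group. Nos2, Gch1 and Odc1 lie higher in every plasmid library than in any control library, and Slc7a1 and Slc7a2 lie lower on average in both plasmid groups.

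Nos2 (ENSMUSG00000020826) was nearly silent in control cells and was expressed in every plasmid library. The control libraries held 4, 0, 13 and 1 counts, or 0.232, 0, 0.692 and 0.0546 CPM, with a mean of 0.245 ± 0.314 (SD, n = 4). SIRT5_WT libraries held 353, 281, 294 and 287 counts, or 17.4, 18.01, 17.0 and 14.7 CPM (16.8 ± 1.42, SD, n = 4). SIRT5_F101L libraries held 445, 406, 778 and 484 counts, or 23.8, 26.4, 31.2 and 27.4 CPM (27.2 ± 3.07, SD, n = 4). The 3 groups did not overlap. Mean CPM was 68.6-fold higher in SIRT5_WT and 111-fold higher in SIRT5_F101L than in control. On the fitted log2 scale the rise was 6.07 ± 0.30 (SE) in SIRT5_WT, at an adjusted p of 6.27e-13 in edgeR's test, and 6.77 ± 0.29 (SE) in SIRT5_F101L, at 5.01e-14. With so few control counts, the fold depends on single libraries: without control replicate 3, which had 13 counts, the log2 values were 7.43 and 8.13, and without control replicate 2, which had 0, they were 5.63 and 6.33.

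Gch1 (ENSMUSG00000037580), which makes the tetrahydrobiopterin precursor that iNOS depends on, rose in both plasmid groups. Control libraries lay at 24.3, 25.6, 25.5 and 21.1 CPM (24.1 ± 2.11, SD, n = 4), and SIRT5_WT libraries at 37.5, 42.2, 39.6 and 41.4 (40.2 ± 2.11, SD, n = 4). SIRT5_F101L libraries lay at 47.2, 35.5, 36.9 and 34.9 (38.6 ± 5.79, SD, n = 4). Every plasmid library was above every control library, and SIRT5_F101L replicate 1 was the highest of all. The log2 fold change was 0.73 in SIRT5_WT (SE 0.10, edgeR adjusted p = 1.70e-06) and 0.68 in SIRT5_F101L (SE 0.10, edgeR adjusted p = 4.41e-06). Without SIRT5_F101L replicate 1 the latter was 0.57 and still called (edgeR adjusted p = 3.58e-07).

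Both arginine transporters fell in SIRT5_WT, by small amounts, and Slc7a1 fell in SIRT5_F101L as well. Slc7a1 (ENSMUSG00000041313), the widely expressed CAT1, lay at 69.8, 57.1, 68.8 and 70.9 CPM in control (66.6 ± 6.42, SD, n = 4). It lay at 58.3, 48.6, 57.1 and 50.5 in SIRT5_WT (53.6 ± 4.77, SD, n = 4) and at 50.6, 50.8, 52.9 and 55.0 in SIRT5_F101L (52.3 ± 2.06, SD, n = 4). Control replicate 2 was well below the other control libraries and overlapped SIRT5_WT, while all SIRT5_F101L libraries were below all controls. Slc7a1 fell by 0.31 on the log2 scale in SIRT5_WT (SE 0.08, edgeR adjusted p = 0.00202) and fell by 0.35 in SIRT5_F101L (SE 0.08, edgeR adjusted p = 0.000715). With the trend of counts with transcript length as an offset, the log2 fold changes were -0.42 and -0.54.

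Slc7a2 (ENSMUSG00000031596), the CAT2 transporter that is often induced along with iNOS in macrophages, did not rise with Nos2 here. It lay at 209, 192, 207 and 211 CPM in control (205 ± 8.94, SD, n = 4), and at 168, 155, 168 and 158 in SIRT5_WT (162 ± 6.78, SD, n = 4), with no overlap. SIRT5_F101L libraries lay at 167, 190, 195 and 210 (190 ± 17.7, SD, n = 4) and overlapped both other groups, replicate 1 being the one inside the SIRT5_WT range. Slc7a2 fell by 0.34 on the log2 scale in SIRT5_WT (SE 0.07, edgeR adjusted p = 0.000212). In SIRT5_F101L the log2 fold change was -0.11 and was not called (SE 0.07, edgeR adjusted p = 0.171). The length trend differed between libraries, as the rise of log2 CPM per log2 unit of transcript length was 0.579 to 0.601 in control, 0.609 to 0.697 in SIRT5_WT, 0.586 in SIRT5_F101L replicate 1 and 0.726 to 0.748 in the other SIRT5_F101L libraries. With the length trend as an offset, Slc7a2, whose longest transcript has 7910 bases, was called lower in SIRT5_F101L too, at -0.32 (edgeR adjusted p = 5.35e-06). Of its exon bases 6.95% overlap another annotated gene.

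The citrulline to arginine steps changed little, and in SIRT5_WT in opposite directions. Ass1 (ENSMUSG00000076441), the rate-limiting step of that route, lay at 121, 111, 128 and 95.7 CPM in control (114 ± 13.9, SD, n = 4). It lay at 85.3, 109, 98.3 and 91.7 in SIRT5_WT (96.1 ± 10.1, SD, n = 4) and at 108, 95.2, 88.9 and 91.6 in SIRT5_F101L (96.0 ± 8.55, SD, n = 4). The groups overlapped, since control replicate 4 lay within both plasmid ranges. Ass1 fell by 0.25 on the log2 scale in both plasmid groups (SE 0.09 each, edgeR adjusted p = 0.0242 in SIRT5_WT and 0.0223 in SIRT5_F101L). Both calls ended with the length offset, at -0.15 and -0.10 (edgeR adjusted p = 0.0906 and 0.260), and without control replicate 1 (0.0731 and 0.0665) or control replicate 3 (0.103 and 0.0949). The SIRT5_WT call also ended without SIRT5_WT replicate 1 or 4 (0.0916 and 0.0652), and the SIRT5_F101L call without SIRT5_F101L replicate 3 or 4 (0.0756 and 0.0571). Of the Ass1 transcript, 73.1% has a copy of at least 95% identity in the pseudogene Gm5424, so its level is uncertain. With that copy's counts added, the log2 fold changes were -0.19 (edgeR adjusted p = 0.0304) and -0.21 (edgeR adjusted p = 0.0200).

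Asl (ENSMUSG00000025533) lay at 36.0, 38.1, 36.7 and 36.7 CPM in control (36.9 ± 0.886, SD, n = 4). SIRT5_WT libraries lay at 37.9, 47.8, 43.9 and 43.0 (43.2 ± 4.07, SD, n = 4) and SIRT5_F101L libraries at 45.9, 43.2, 36.9 and 36.7 (40.7 ± 4.59, SD, n = 4). Both plasmid groups overlapped control. Asl was called higher in SIRT5_WT, by 0.22 on the log2 scale (SE 0.08, edgeR adjusted p = 0.0297), a call that ended under upper-quartile scaling (0.17, edgeR adjusted p = 0.0853) and without any 1 of control replicates 1, 3 and 4 or SIRT5_WT replicates 2 and 3 (edgeR adjusted p = 0.0594 to 0.115). In SIRT5_F101L it was 0.14 and not called (SE 0.08, edgeR adjusted p = 0.166), though called with the length offset (0.22, edgeR adjusted p = 0.0135).

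Odc1 (ENSMUSG00000011179), the rate-limiting enzyme of polyamine synthesis, was higher by 2.18-fold in SIRT5_WT and 2.24-fold in SIRT5_F101L. It lay at 80.2, 71.4, 83.1 and 72.0 CPM in control (76.6 ± 5.86, SD, n = 4). It lay at 167, 167, 163 and 170 in SIRT5_WT (167 ± 2.89, SD, n = 4), and at 181, 170, 169 and 166 in SIRT5_F101L (171 ± 6.75, SD, n = 4). The plasmid libraries formed a narrow band far above every control. The log2 fold change was 1.12 in SIRT5_WT (SE 0.06, edgeR adjusted p = 2.99e-12) and 1.16 in SIRT5_F101L (SE 0.06, edgeR adjusted p = 1.60e-12). Of its transcript, 62.8% has a copy of at least 95% identity in 1 or more of 8 other genes. Of these, Gm7993 went from 14.1 ± 2.21 CPM in control to 30.1 ± 0.246 in SIRT5_WT and 30.8 ± 4.54 in SIRT5_F101L (SD, n = 4 each), and adding its counts left the log2 fold changes of Odc1 at 1.12 and 1.16.

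**Figure D2:**
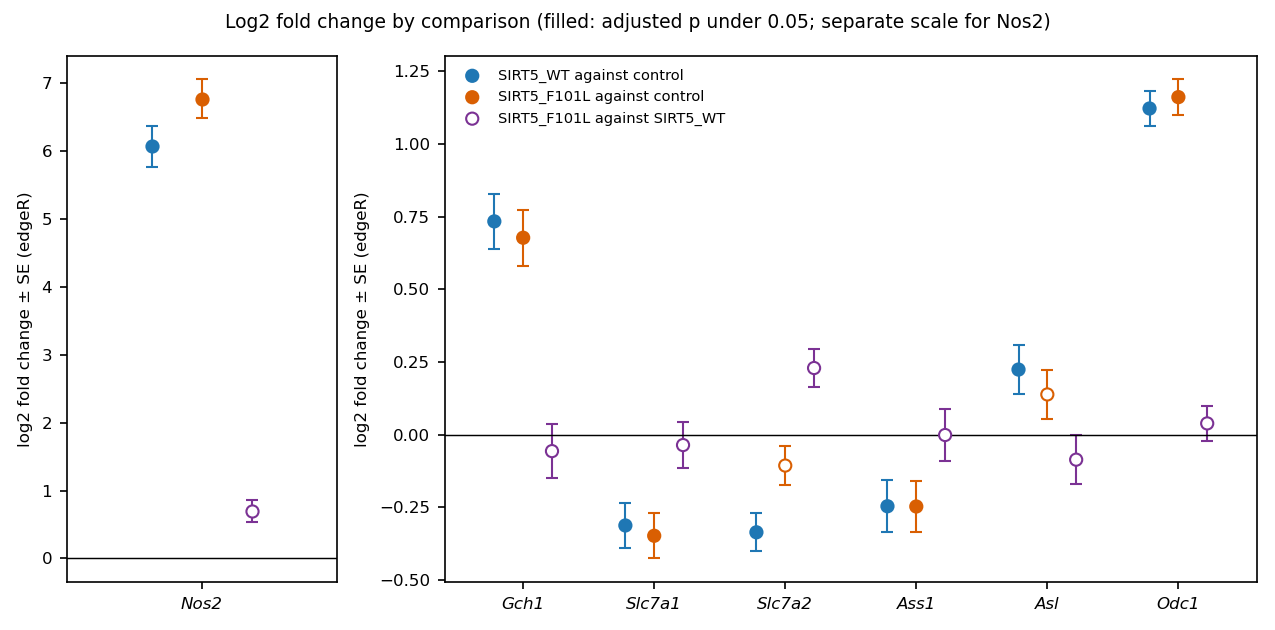
Log2 fold change of the 7 genes in the 3 comparisons, with ± SE from the edgeR fit, on a separate vertical scale for Nos2. Filled points have an adjusted p under 0.05. The changes of Nos2 at 6.07 and 6.77 exceed those of Odc1 at 1.12 and 1.16, and no gene is filled for SIRT5_F101L against SIRT5_WT.

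Between the plasmid groups, none of the 7 genes passed, as for nearly all genes (0.0421% called, 6 genes). At an unadjusted p under 0.05 there were 2, Nos2 and Slc7a2, beside 11.9% of all tested genes. DESeq2 called 1 of the 7, Nos2, beside 0.298% of the genes for which it gave an adjusted p. Nos2 was the 1 gene of the 7 whose plasmid groups did not overlap, against 4.02% of all tested genes. Its mean was 1.62-fold higher in SIRT5_F101L, a log2 difference of 0.70 (SE 0.16, edgeR adjusted p = 0.137). The adjusted p ranged from 2.62e-07 to 0.559 over the alternatives, and Nos2 was called by DESeq2 (adjusted p = 4.63e-05), with no expression filter (edgeR adjusted p = 2.62e-07) and with only the 8 plasmid libraries fitted (edgeR adjusted p = 0.0445).

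Without SIRT5_F101L replicate 1, 2 genes of the set were called between the plasmid groups, beside 15.2% of all tested genes. That library was left out because it lay with SIRT5_WT, so the choice itself made calls more likely. Nos2 was higher in SIRT5_F101L by 0.76 on the log2 scale (SE 0.14, edgeR adjusted p = 0.000280) and Slc7a2 by 0.29 (SE 0.06, edgeR adjusted p = 0.000840). With all libraries the Slc7a2 difference was 0.23 (SE 0.07, edgeR adjusted p = 0.304), and 0.13 with the length trend as an offset (edgeR adjusted p = 0.315). The other 5 differences with all libraries lay between -0.09 for Asl and 0.04 for Odc1, and their edgeR adjusted p between 0.689 and 0.998. Without SIRT5_F101L replicate 1 these 5 lay between -0.17 for Gch1 (edgeR adjusted p = 0.169) and 0.01 for Odc1, with Asl at -0.15 (edgeR adjusted p = 0.228), and none was called. Without SIRT5_WT replicate 1, 0 of the 7 genes were called by edgeR, Nos2 lying at 0.72 (edgeR adjusted p = 0.176) and Slc7a2 at 0.25 (edgeR adjusted p = 0.216).

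A ratio within a library compares genes without scaling between libraries. The log2 ratio of Slc7a2 to Slc7a1 counts, with 0.5 added to each, was 1.62 ± 0.0822 in control, 1.60 ± 0.0687 in SIRT5_WT and 1.86 ± 0.0940 in SIRT5_F101L (SD, n = 4 each). It was higher in every SIRT5_F101L than in every SIRT5_WT library, by 0.26 on average. The exact 2-sided permutation p was 0.0286, the smallest that 4 against 4 libraries allow, and 0.0857 when adjusted over the 3 comparisons of this ratio, so it did not pass. Without SIRT5_F101L replicate 1 the difference was 0.30 (exact permutation, adjusted p = 0.0857). That test could not pass, since the smallest exact permutation p that 3 against 4 libraries allow is 0.0571. Against control the differences were -0.02 in SIRT5_WT (exact permutation p = 0.714) and 0.23 in SIRT5_F101L (exact permutation p = 0.0571, adjusted 0.0857), with overlap in both.

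Per kilobase of the longest transcript, Ass1 was the highest of the 7 genes in control at 67.1 ± 8.17 CPM per kb (SD, n = 4). Odc1 followed at 34.7, Slc7a2 at 25.9, Asl at 15.3, Slc7a1 at 9.28 and Gch1 at 6.88, none overlapping its neighbour. Nos2 at 0.0584 was the lowest, also without overlap. In both plasmid groups Odc1 stood first, at 75.6 ± 1.31 and 77.7 ± 3.06 CPM per kb, above Ass1 at 56.7 ± 5.98 and 56.6 ± 5.04 (SD, n = 4 each). Nos2 stayed the lowest, at 4.003 in SIRT5_WT and 6.48 in SIRT5_F101L, where it overlapped Slc7a1 at 7.29. Gch1, at 11.5 and 11.0, passed Slc7a1 in both. Asl at 17.9 overlapped Slc7a2 at 20.5 in SIRT5_WT only; in SIRT5_F101L the values were 16.9 and 24.05, without overlap. Ass1 and Odc1 levels carry the uncertainty of their copies.

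**Figure D3:**
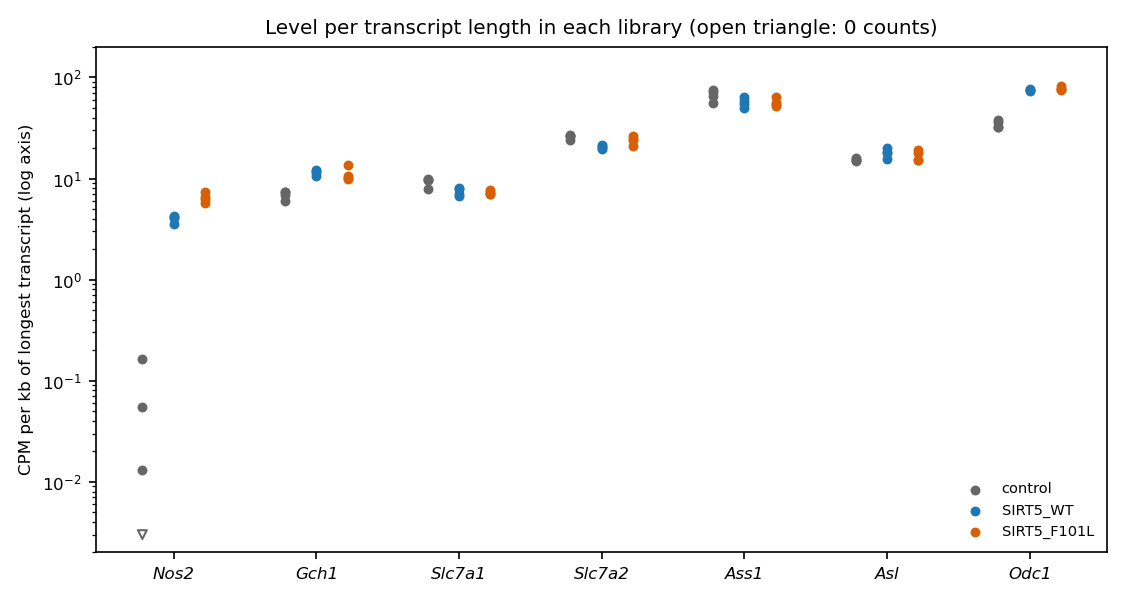
Level of each gene per kilobase of its longest transcript in each library, in CPM per kb on a log axis, with one point per library and an open triangle for the library with 0 Nos2 counts. Odc1 overtakes Ass1 in the plasmid libraries, and Nos2 comes closer to Slc7a1.

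For each tested gene, those with the most similar profile over the 12 libraries were listed among genes averaging 5 CPM or more. These are descriptions over 12 points that share the control-to-plasmid step, so the r within the 8 plasmid libraries is given as well. Nos2 was closest to Arhgap11a (r = 0.995, within plasmid libraries 0.62), G3bp2 (0.994, 0.76) and Sh3bgrl2 (0.994, 0.86). Odc1 was closest to Saa3, an acute-phase serum amyloid A (0.998, 0.80), Nus1 (0.998, 0.69) and Cyb5b (0.997, 0.13). Gch1 was closest to Hmox1, the heme oxygenase (0.990, 0.95), Dnajb6, a heat-shock protein 40 chaperone (0.988, 0.96) and Ldha, lactate dehydrogenase A (0.987, 0.94). Slc7a2 was closest to F13a1 (0.954, 0.93), Cdon (0.954, 0.92) and Rbfox2 (0.947, 0.95). Slc7a1 was closest to the collagen gene Col5a2 (0.951, 0.63), Mfsd11 (0.950, 0.76) and Selenon (0.950, 0.84). Asl was closest to Metrnl (0.908, 0.94), Uqcc1 (0.905, 0.98) and Fabp4 (0.888, 0.85). Ass1 was closest to Tcea1-ps1 (0.923, 0.84), Med8 (0.922, 0.88) and Limd2 (0.897, 0.82).

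A further 88 genes around these were grouped in 7 lists, of which 72 were tested. In SIRT5_WT 30 rose and 24 fell, and in SIRT5_F101L 29 rose and 24 fell, or 75.0% and 73.6% called beside 56.8% and 60.7% of all genes. Of the others, Oat, Otc, Sms, Sat1, Slc7a3, Pde2a, Slc25a2, Aldh4a1 and Dohh were listed at 0 in all libraries. A listing at 0 cannot be read as absence of expression, since all 2414 IDs on chromosome X were listed at 0. Nos3, Gucy1a1, Pde9a, Cps1, Nags, Agmat and Oaz3 did not pass the filter. From each list up to 3 genes with the lowest adjusted p are described, with the log2 fold change in SIRT5_WT and then SIRT5_F101L. Nos1, Ddah1, Gucy1b1, Pde5a and Prkg1 lie outside that rule and were chosen after their values were seen.

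Among NO synthases and their regulators, 7 of 13 rose and 3 fell in SIRT5_WT, and 7 rose and 4 fell in SIRT5_F101L. The NO synthase gene Nos1 had a lower mean in both plasmid groups, opposite to Nos2. It lay at 1.87 ± 0.403 CPM in control, 0.512 ± 0.156 in SIRT5_WT and 0.581 ± 0.211 in SIRT5_F101L (SD, n = 4 each). Nos1 had 28 to 46 counts in control libraries, 6 to 15 in SIRT5_WT and 7 to 14 in SIRT5_F101L. Ddah2, a gene of the dimethylarginine dimethylaminohydrolase family, had log2 fold changes of -2.45 and -2.73 (edgeR adjusted p = 2.03e-11 and 4.46e-12). It went from 32.6 ± 2.49 CPM in control to 6.03 ± 1.26 and 4.88 ± 1.33 (SD, n = 4 each). Its paralog Ddah1, a hydrolase of the endogenous NO synthase inhibitor dimethylarginine, was the more abundant of the pair in CPM. Ddah1 rose by 0.31 and 0.37, from 112 ± 6.56 CPM to 139 ± 3.96 and 145 ± 7.52 (SD, n = 4 each, edgeR adjusted p = 0.000148 and 1.93e-05). Hsp90aa1, a chaperone that binds NO synthases, rose by 0.82 and 0.999, and the cytochrome P450 gene Cyp1b1 by 0.94 and 1.09. In NO-cGMP signalling, 3 of 9 rose in each comparison and 3 and then 2 fell. Gucy1b1, a subunit of the NO receptor guanylate cyclase, had log2 fold changes of -2.63 and -2.35 (1.57 ± 0.367 CPM to 0.243 ± 0.0696 and 0.308 ± 0.260, SD, n = 4 each, edgeR adjusted p = 6.15e-05 and 0.000124), with 1 to 10 counts in any plasmid library. The cGMP phosphodiesterase gene Pde5a lay at -0.97 and -0.72 on that scale, both called. For the cGMP-dependent kinase gene Prkg1 the values were -0.66 (called) and -0.28 (not called, edgeR adjusted p = 0.0590). With all 12 libraries the difference between the plasmid groups was not called either (edgeR adjusted p = 0.355). Prkg1 lay at 39.4 CPM in SIRT5_F101L replicate 1 and at 60.4, 65.7 and 60.1 in replicates 2 to 4, beside 39.9 to 49.7 in SIRT5_WT. Its fit without replicate 1 is not given here. The general redox enzyme gene Nqo1 rose by 1.97 and 2.0 (36.1 ± 2.07 CPM to 142 ± 13.1 and 144 ± 13.8, SD, n = 4 each), another cGMP-dependent kinase gene, Prkg2, by 1.57 and 1.56, and the redox enzyme glutathione reductase (Gsr) by 1.04 and 1.13.

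In tetrahydrobiopterin synthesis, 3 of 7 rose and 2 fell in both comparisons. Gchfr, whose protein mediates feedback inhibition of GTP cyclohydrolase I, rose by 1.09 and 0.85, from 16.7 ± 1.095 CPM to 35.5 ± 3.41 and 29.96 ± 5.64 (SD, n = 4 each, edgeR adjusted p = 6.21e-08 and 1.94e-06). Pts, the enzyme that follows GTP cyclohydrolase, had log2 fold changes of -0.90 and -0.89 (27.2 ± 1.96 to 14.6 ± 1.54 and 14.7 ± 1.75 CPM, SD, n = 4 each). Pcbd1, a pterin dehydratase, had log2 fold changes of -1.26 and -1.18.

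Around the urea cycle and side branches, 6 of 13 rose and 2 fell in SIRT5_WT, and 5 rose and 3 fell in SIRT5_F101L. The creatine kinase gene Ckb rose by 1.12 and 0.92 and the mitochondrial aspartate aminotransferase Got2 by 0.63 and 0.50. Of 10 amino acid transporters 5 rose and 5 fell in SIRT5_WT, and 5 rose and 3 fell in SIRT5_F101L. Slc7a5, the large neutral amino acid transporter LAT1, had log2 fold changes of -1.998 and -2.12 (114 ± 9.64 CPM to 28.6 ± 3.29 and 26.4 ± 2.07, SD, n = 4 each). Its heavy chain partner Slc3a2 had log2 fold changes of -0.85 and -1.07. The arginine exchanger Slc7a6, which uses the same heavy chain, rose by 0.88 and 0.93.

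In the ornithine to proline branch no gene of 6 rose, and 3 fell in SIRT5_WT and 4 in SIRT5_F101L. Pycr1, which makes proline, had log2 fold changes of -2.59 and -2.92, from 65.0 ± 4.97 CPM to 10.8 ± 1.21 and 8.57 ± 2.08 (SD, n = 4 each, edgeR adjusted p = 6.06e-13 and 1.19e-13). Aldh18a1, which makes its precursor from glutamate, had log2 fold changes of -1.02 and -1.03, and P4ha1, a prolyl hydroxylase of collagen, had log2 fold changes of -0.61 and -0.53. Of 14 polyamine genes, 6 rose and 6 fell in each comparison. Spermine oxidase (Smox) rose by 1.86 and 1.72 (16.3 ± 1.35 CPM to 59.0 ± 1.42 and 53.5 ± 5.36, SD, n = 4 each). Amd1, the S-adenosylmethionine decarboxylase that supplies spermidine synthesis, rose by 0.72 and 0.77, and Mtap, which recycles its by-product, by 0.72 and 0.68. Between the plasmid groups no pathway gene of 72 was called by edgeR, and 0 by DESeq2, with 18 at an unadjusted p under 0.05 in edgeR, beside 11.9% of all tested genes. Without SIRT5_F101L replicate 1, 21 pathway genes were called at an adjusted p under 0.05, 5 higher and 16 lower in SIRT5_F101L, beside 15.2% of all tested genes.

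**Figure D4:**
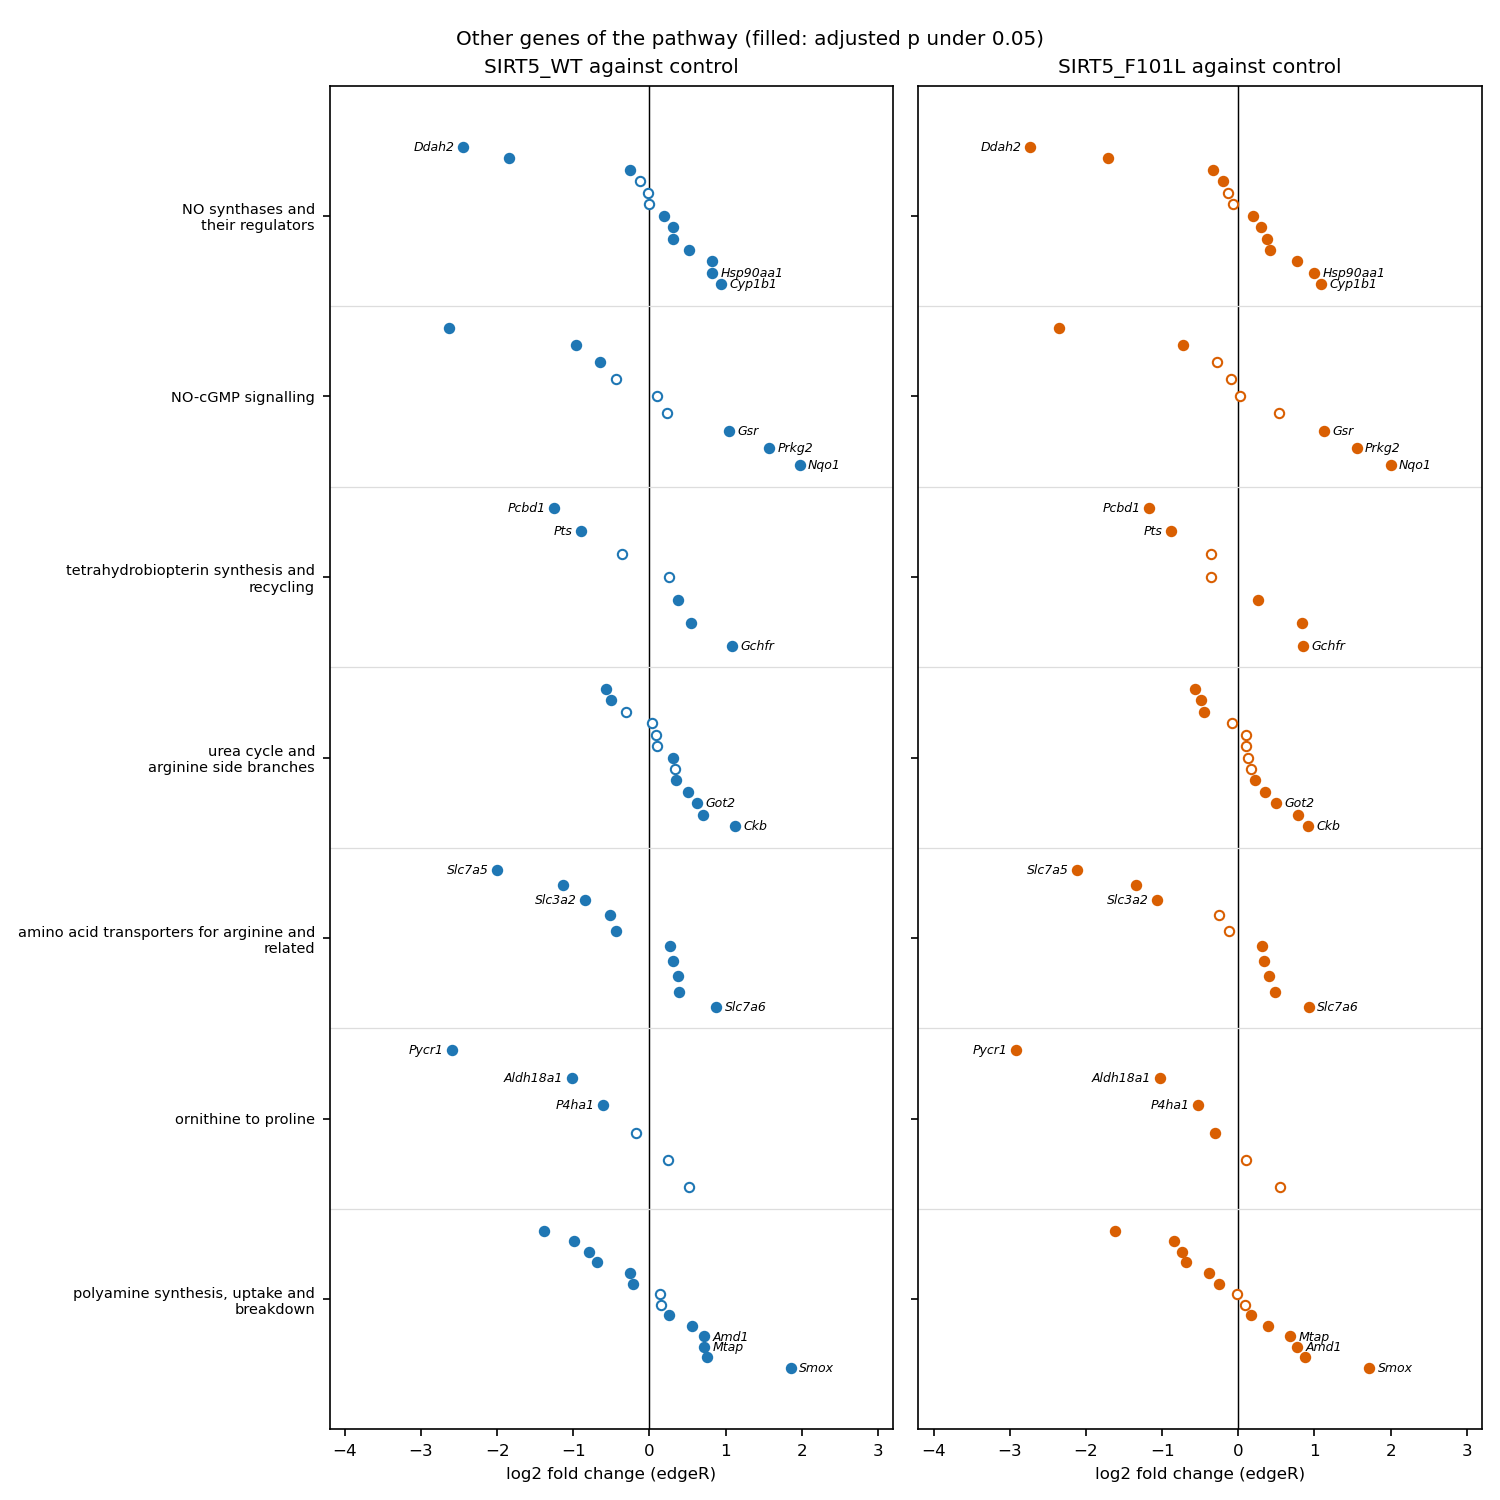
Log2 fold change against control of the 72 tested genes of the 7 lists, one point per gene, sorted within each list, with SIRT5_WT on the left and SIRT5_F101L on the right. Filled points have an adjusted p under 0.05 and named points are among the 3 of each list with the lowest adjusted p. Both directions occur in every list except ornithine to proline, where the filled points all lie below 0.

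Marker genes of cell types moved with these changes. The summed level of 14 chondrocyte markers was 9283 to 11637 CPM in control, 2843 to 2957 in SIRT5_WT and 2313 to 2558 in SIRT5_F101L. Of the 13 tested, 11 fell in each group, while Acan and Hapln1 rose in SIRT5_WT; Chad was listed at 0. In bulk samples, fewer cells of a type and less RNA per cell cannot be told apart. Macrophages are known to make Nos2. The 18 macrophage markers summed to 236 to 277 CPM in control, 149 to 168 in SIRT5_WT and 156 to 199 in SIRT5_F101L, and Itgam was listed at 0. Of the 15 tested, 14 and 13 fell, the leukocyte gene Ptprc having a mean of 1.90 CPM in control, 0.787 and 0.709, and the macrophage gene Adgre1 7.30, 1.78 and 1.93. Cd14 alone rose in both, from 12.4 to 51.2 and 59.7 CPM. Neutrophil markers summed to 0.813 to 1.36 CPM in control, 46.0 to 59.1 in SIRT5_WT and 49.1 to 85.3 in SIRT5_F101L, mostly S100a8 (means of 0.385, 48.6 and 57.3 CPM). All 3 tested neutrophil markers rose in both plasmid groups: with S100a8 these were Camp (0.204, 2.01 and 1.80 CPM) and Ly6g (0.0266, 0.620 and 0.577 CPM). Mpo, Elane and Csf3r had at most 11 counts in any library, and S100a9 was listed at 0. Endothelial markers summed to 3.35 to 4.87 CPM in all groups and lymphocyte markers to 0.154 to 1.01, with 5 of 9 listed at 0. The 7 osteoblast markers summed to 11183 to 13580 CPM in control, 3358 to 4123 in SIRT5_WT and 3048 to 3863 in SIRT5_F101L, with 4 of 5 tested lower in each. Nearly all of that sum was the collagen gene Col1a1 (means of 12687, 3701 and 3400 CPM). The next highest in control was Ibsp (14.7, 0.284 and 0.146 CPM). The 7 muscle markers summed to 712 to 871, 133 to 141 and 110 to 117 CPM, with 3 of 3 tested lower and Actc1 listed at 0. That sum was nearly all Acta2 (means of 776, 135 and 111 CPM), the next highest in control being Myh11 (4.12, 1.16 and 0.920 CPM). The 8 fibroblast and synovial markers summed to 19912 to 23919, 8969 to 9701 and 9290 to 9809 CPM, with 3 of 7 tested higher and 4 lower in each group. Most of that sum was Col1a2 (means of 14239, 3825 and 3580 CPM) and Col3a1 (6475, 2388 and 2575 CPM). Dcn, Pdgfra and Prg4 had higher means in both plasmid groups than in control. The part of any cell type in the changes above was not tested.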

How the data were processed

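Poly(A) mRNA of primary mouse chondrocytes was sequenced as 150 bp paired-end reads, per the labels' protocols. The deposited files hold whole-number counts per Ensembl gene, 1 file per library. The submitters' processing notes name FastQC 0.11.9, HISAT2 2.2.1, HTSeq 2.0.2, DESeq2 1.38.3 and GRCm39 (mm39), with no role or order; annotation, strand setting and handling of multiple hits are not given in the sources used here. Groups came from the treatment label.

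Counts were tested with edgeR 4.0.16 (R 4.3.3): TMM scaling, the default filter by group, 1 quasi-likelihood model for the 12 libraries (9 residual degrees of freedom), and Benjamini-Hochberg adjustment over 14253 genes. Standard errors are the log2 fold change over the square root of F. The steps were tested on simulated data. Precision is limited by counts, which fell under 20 per library for control Nos2. Ratios were tested by exact permutation over libraries. Transcript lengths, copies (BLAST 2.17.0) and overlaps came from a mouse reference annotation of another build than the notes name, and promoters from RefSeq.

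The members and lists were chosen with earlier results of these data known. In all, 2 members and 1 pathway gene that the rules name are not reported here. The other 7 members, the 3 genes per list with the lowest adjusted p against control, genes at 0 and the 3 nearest profiles per member are named. Alternatives were DESeq2 1.42.0, a robust prior, scaling by RLE or upper quartile, a filter at a mean of 1 CPM or only on genes without counts, a length offset, fits of the 8 libraries compared, a prior count of 2 in ratios and leaving out each library. Adding the counts of near-identical copies was chosen after seeing the data.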

Additional observations from a re-analysis of the deposited data

Results flagged for a closer look

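In each group of 4 libraries, the highest and lowest value of each member and of the Slc7a2 to Slc7a1 ratio was compared with the nearest other value. Of 24 sets of 4 values, 3 held a library far from the other libraries. Chance alone would give about 1 in 20, or 1.20, if the sets were independent. They are not, since the ratio is made from the Slc7a2 and Slc7a1 counts. Gch1 in SIRT5_F101L replicate 1 was 47.2 CPM, above the other libraries of its group at 34.9 to 36.9. Slc7a1 in control replicate 2 was 57.1 CPM, below the other control libraries at 68.8 to 70.9. The log2 ratio of Slc7a2 to Slc7a1 in the same control library was 1.75, above the others at 1.58 to 1.59.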

How the results depend on the processing

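Against control, the counts of called genes stayed within 1.5 times under every alternative run: 5 to 7 members in SIRT5_WT and 4 to 6 in SIRT5_F101L. Between the plasmid groups, where 6 genes were called, the count was 354 with no filter, 2 with a robust prior, 38 with DESeq2, 18 with a length offset and 2 with only the 8 libraries compared; leaving out 1 library gave 0 to 2212, the highest without SIRT5_F101L replicate 1. Members called there numbered 1 with no filter, with DESeq2 and with the 8 libraries, and 0 to 2 leaving out 1 library; pathway genes numbered 3 with no filter and 0 to 21 leaving out 1 library. The near-0 log2 difference of Ass1 between the plasmid groups turned positive with RLE (0.00483) and upper-quartile scaling (0.00433), the 1 CPM filter (0.000703), DESeq2 (0.00288) and the length offset (0.0503), and ran from -0.0619 to 0.0637 leaving out 1 library. That of Slc7a1 ran from -0.0797 to 0.00683 leaving out 1 library. The log2 ratio of Slc7a2 to Slc7a1 in SIRT5_WT against control, -0.02, ran from -0.0474 to 0.0176 leaving out 1 library. The cause was not tested. No paired analysis was possible because the labels give no replicate numbers; those used here follow accession order and only name a library. Counting noise limits control Nos2.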
